A study of Rattus norvegicus with 6 samples.

Results

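The miR-34 family was measured here by 3 assays, miR-34a, miR-34b-3p and miR-34c, out of 584 miRNA assays run on the left ventricle of 3 OLETF and 3 LETO rats. The members were taken by name, with passenger-strand (*) assays left out. The family was chosen by its OLETF against LETO values in earlier results of these data, in which miR-34b-3p lay higher in every OLETF sample relative to median references and miR-34a lay lower with weighted samples. The group differences of the members are therefore given as descriptions, with no test.

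OLETF is a rat strain with spontaneous obesity and type 2 diabetes, and its samples are labelled as diabetic. LETO is the related lean strain, labelled as the healthy control. No transgene, agent or diet is given for either group, and age and sex are not given in the sources used here. All diabetic rats were OLETF and all controls LETO, so strain and disease cannot be told apart. The labels name 1 piece of ventricle per sample and give no litter or day, so the spread and the SE values measure the variation between these 6 samples only.

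A miRNA is a short RNA that lowers the output of mRNAs that pair with its seed, the stretch from base 2 to base 8. The miR-34 genes are best known as direct targets of the tumour suppressor p53. Mature miR-34 represses mRNAs of cell-cycle and survival proteins, among them the deacetylase SIRT1 and the apoptosis inhibitor BCL2. In mouse hearts, miR-34a is known to increase with age and after infarction, and its inhibition has been studied as a treatment. miR-34b and miR-34c are made from 1 shared primary transcript and are known mainly from multiciliated airway cells, testis and brain, as is the related miR-449 cluster.

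The RefSeq sequences of the rat miRNAs are shown because the 3 assays do not read the same arm of their hairpins. Seeds are in capitals, and every sequence runs 5′ to 3′. The first set holds the 5′ arms, which carry the family's seed.

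miR-34a-5p (assay miR-34a): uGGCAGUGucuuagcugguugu
miR-34c-5p (assay miR-34c): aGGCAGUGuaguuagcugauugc
miR-34b-5p (not analysed here): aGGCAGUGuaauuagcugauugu
miR-449a-5p (assay miR-449a): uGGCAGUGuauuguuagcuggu
miR-449c-5p (assay miR-449c): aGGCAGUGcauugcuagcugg

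The second set holds the 3′ arms of the 34b/34c cluster, which have another seed.

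miR-34b-3p (assay miR-34b-3p): aAUCACUAacuccacugccauc
miR-34c-3p (assay miR-34c*): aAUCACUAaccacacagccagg

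Among 693 mature rat miRNA names in RefSeq, 5 carry the seed GGCAGUG and all 5 are in the first set. The seed AUCACUA is carried by 2, the pair in the second set. The 5′ arms of miR-34b and miR-34c are identical at 21 of 23 bases, and their 3′ arms at 17 of 22. The assays are named for the mouse miRNAs, and the letters shown are those of the rat. A reading of miR-34b-3p is thus a reading of the cluster's 3′ arm, with a seed that miR-34a does not have.

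In the RefSeq tables (build GRCr8), the miR-34a hairpin lies at chr5:165815952-165816053 on the plus strand, inside the long noncoding RNA gene LOC103692514. The miR-34b hairpin lies at chr8:60306609-60306692 and that of miR-34c at chr8:60306091-60306167, both on the minus strand and 441 bases apart. The miR-34c hairpin falls within the span of the protein-coding gene Hoatz. The miR-34b hairpin is shown with both mature arms in capitals, to place the arm that was measured (the second) against the arm that was not.

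miR-34b hairpin: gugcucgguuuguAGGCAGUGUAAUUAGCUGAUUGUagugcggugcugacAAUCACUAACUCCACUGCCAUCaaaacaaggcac

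Each well gives a threshold cycle (Ct), the PCR cycle at which its signal crosses a set line, and it falls as the amount of RNA grows. With perfect doubling, 1 cycle equals 1 log2 unit. The 3 members were on the same card of 384 wells, card A, with 1 well each per sample. A Ct under 35 was taken as measured. The level of a miRNA was U6 Ct minus its own Ct on the same card, U6 being the small nuclear RNA that the labels name as control. On that scale a higher, less negative value means more RNA. Duplicate wells of other assays, on card B, put the SD of a single well at 0.486 cycles and that of a difference between wells at 0.688 cycles (189 pairs of wells).

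Between 197 and 228 assays were measured in the OLETF samples and 202 to 292 in the LETO samples, with LETO replicate 3 at the top. That sample also had the lowest median Ct on card A (26.5, against 28.0 to 29.0 in OLETF and 29.5 and 30.0 in the other LETO samples). U6 on card A lay between 17.6 and 18.2 cycles in OLETF and between 17.5 and 19.2 in LETO. Heart muscle miRNAs (miR-1, miR-133a, miR-133b, miR-208, miR-208b and miR-499) were measured in all 6 samples, while miR-122, a liver miRNA, and miR-375, an islet miRNA, were undetermined in all. Of the neural miRNAs, miR-9 was measured in all 6 samples, with a Ct of 28.1 to 33.0, and miR-124 in none. The leukocyte miRNAs miR-142-3p (26.2 to 30.3) and miR-223 (24.6 to 26.6) were measured in all 6, and miR-451, of red blood cells, in 0 OLETF and 1 LETO samples. The part of other cell types in the miR-34 values was not tested. In bulk tissue, fewer cells of a type and less RNA per cell cannot be told apart.

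The members differed in how far they could be detected. miR-34a and miR-34b-3p were measured in all 6 samples. miR-34c, the 5′ arm of the cluster, was measured in 1 of 3 OLETF samples and 1 of 3 LETO samples, in each group the one numbered replicate 3. Its Ct was 36.4 in OLETF replicate 1, undetermined in replicate 2 and 34.7 in replicate 3. In LETO it was undetermined in replicate 1, 35.8 in replicate 2 and 33.6 in replicate 3. Detection of miR-34c was thus the same in both groups, and at these Ct values no group difference could be given. In the ranking of card A by Ct, miR-34c stood at place 160 of 165 measured assays in OLETF replicate 3 and 179 of 202 in LETO replicate 3.

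miR-34a, the member best known from heart, lay near the middle of the measured assays. Its Ct was 30.8, 31.2 and 28.6 in OLETF replicates 1, 2 and 3, and 30.4, 30.4 and 26.6 in LETO. The U6-based levels of miR-34a were -13.14, -13.30 and -10.34 in OLETF, and -11.22, -12.92 and -8.71 in LETO. Replicate 3 was the highest of its group in both strains, and the groups overlapped. miR-34a stood at places 69 to 91 among the 145 to 165 measured assays of card A in the OLETF samples, and at places 63 to 76 among 144 to 202 in the LETO samples.

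miR-34b-3p, the 3′ arm of the cluster's other hairpin, showed the opposite order of group means. Its Ct was 29.9, 29.9 and 29.6 in OLETF, and 31.8, 32.1 and 29.8 in LETO. The U6-based levels of miR-34b-3p were -12.24, -11.93 and -11.38 in OLETF, and -12.64, -14.61 and -11.88 in LETO. The OLETF samples lay within 1 cycle of each other on either scale, while LETO replicate 3 was above OLETF replicates 1 and 2 in level, so the groups overlapped. Its place on card A was 74 to 94 among 145 to 165 measured assays in OLETF, and 94 to 117 among 144 to 202 in LETO. Replicate 3 stood at 94 of 165 in OLETF and at 117 of 202 in LETO, so the totals differ between samples.

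**Figure D1:**
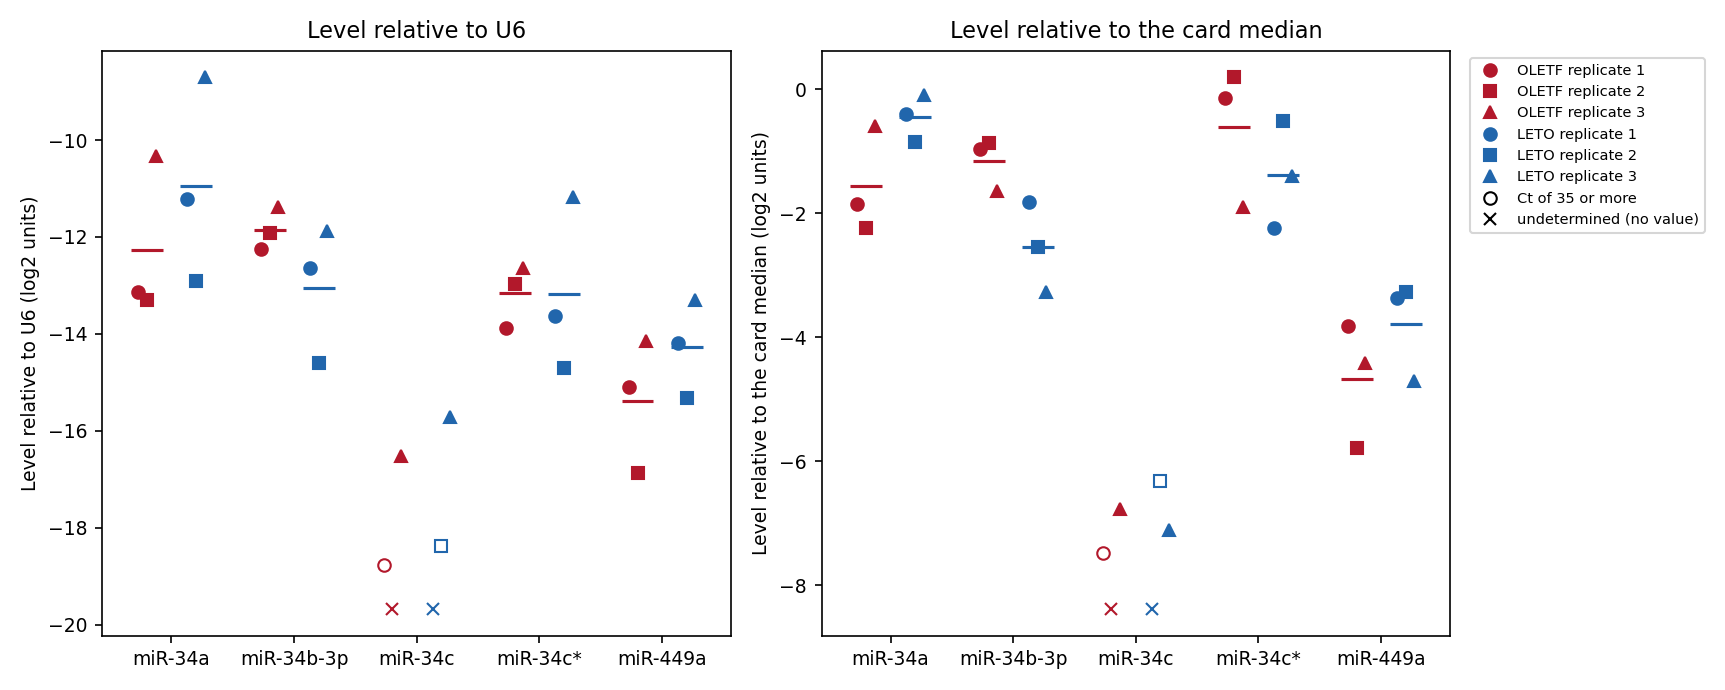
Level of each assay in every sample, relative to U6 (left) and to the median of the assays of the same card measured in all 6 samples (right), in log2 units, with OLETF (red) left of LETO (blue). Lines are group means where all 3 samples had a Ct under 35, open symbols mark a Ct of 35 or more, and crosses mark undetermined wells, which have no value. miR-34c is the lowest of the 5 assays in each sample where it has a value, and relative to the card median miR-34b-3p is higher in every OLETF than in every LETO sample.

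Relative to U6, miR-34a averaged -12.26 ± 1.67 in OLETF and -10.95 ± 2.12 in LETO (SD, n = 3 each), a difference of -1.31 log2 units (SE 1.38). miR-34b-3p averaged -11.85 ± 0.44 in OLETF and -13.04 ± 1.41 in LETO, a difference of 1.19 (SE 1.38). The SE comes from the fit over all assays and was the same for both, since limma in effect pooled the spread. Both differences are smaller than that SE. Across the whole table limma called 0 of 193 tested assays at an adjusted p under 0.05 (0%), with 2 at an unadjusted p under 0.05 and 1 by the ordinary per-assay test. Neither miR-34a nor miR-34b-3p was called, and miR-34c was not tested.

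Whole samples shifted together on the U6 scale, with a median difference of -0.60 over the 193 assays, of which 156 lay lower and 37 higher in OLETF. miR-34a lay below that median and miR-34b-3p above 0, at place 2 of 193 counted from the highest difference. As the members were chosen for their differences, nothing is read from these places. On the U6 scale the groups were apart for 0 of the 162 assays measured in all samples (0%). Without LETO replicate 3, the difference of miR-34a was -0.19 and that of miR-34b-3p 1.77, while the median of all assays became 0.38. Without LETO replicate 2, miR-34a differed by -2.30 and miR-34b-3p by 0.41, with a median of -1.57. The size of each member's difference thus followed the sample left out, while its sign did not change.

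The card median, the median Ct of the card's assays measured in all 6 samples, removes shifts of a whole card. On this scale the levels of miR-34b-3p were -0.96, -0.86 and -1.65 in OLETF, and -1.83, -2.55 and -3.27 in LETO. Every OLETF sample lay above every LETO sample. The nearest samples, OLETF replicate 3 and LETO replicate 1, were 0.18 apart, less than the SD of a single well. Of 162 assays, 4.32% had every OLETF above every LETO sample on this scale, and as miR-34b-3p was chosen for this pattern, nothing is read from that share. The difference was 1.40 (SE 0.469), from -1.15 ± 0.43 in OLETF and -2.55 ± 0.72 in LETO.

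For miR-34a the card-median levels were -1.85, -2.24 and -0.60 in OLETF, and -0.40, -0.86 and -0.10 in LETO. OLETF replicates 1 and 2 lay below all LETO samples, and OLETF replicate 3 lay between them. The difference was -1.11 (SE 0.497), from -1.56 ± 0.86 in OLETF and -0.45 ± 0.38 in LETO. Taken over replicates 1 and 2 alone it was -1.42, and replicate 3 of OLETF minus replicate 3 of LETO gave -0.50. Here and below, the replicate 3 value sets 1 sample against 1 sample that is not taken as its pair, so it is no group estimate. For miR-34b-3p the same values were 1.28 and 1.63.

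The signs of the mean differences held under the other references as well. With the whole-array median, miR-34a differed by -0.83 (SE 0.514) and miR-34b-3p by 1.68 (SE 0.481), with every OLETF sample of miR-34b-3p above every LETO sample, as for 7.41% of the 162 assays. With quantile normalization the differences were -0.64 and 1.75, and with the other small RNA controls -0.46 (SE 0.510) and 2.04 (SE 0.869). With those controls the whole table shifted up, with a median of 0.37 and 145 of 193 assays higher in OLETF. The groups overlapped there for both members. OLETF was higher in 8 of 9 pairs for miR-34b-3p and in 2 of 9 for miR-34a. miR-34b-3p stood at place 2 or 3 from the highest under the 5 references. miR-34a lay below the median of all tested assays in each.

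**Figure D2:**
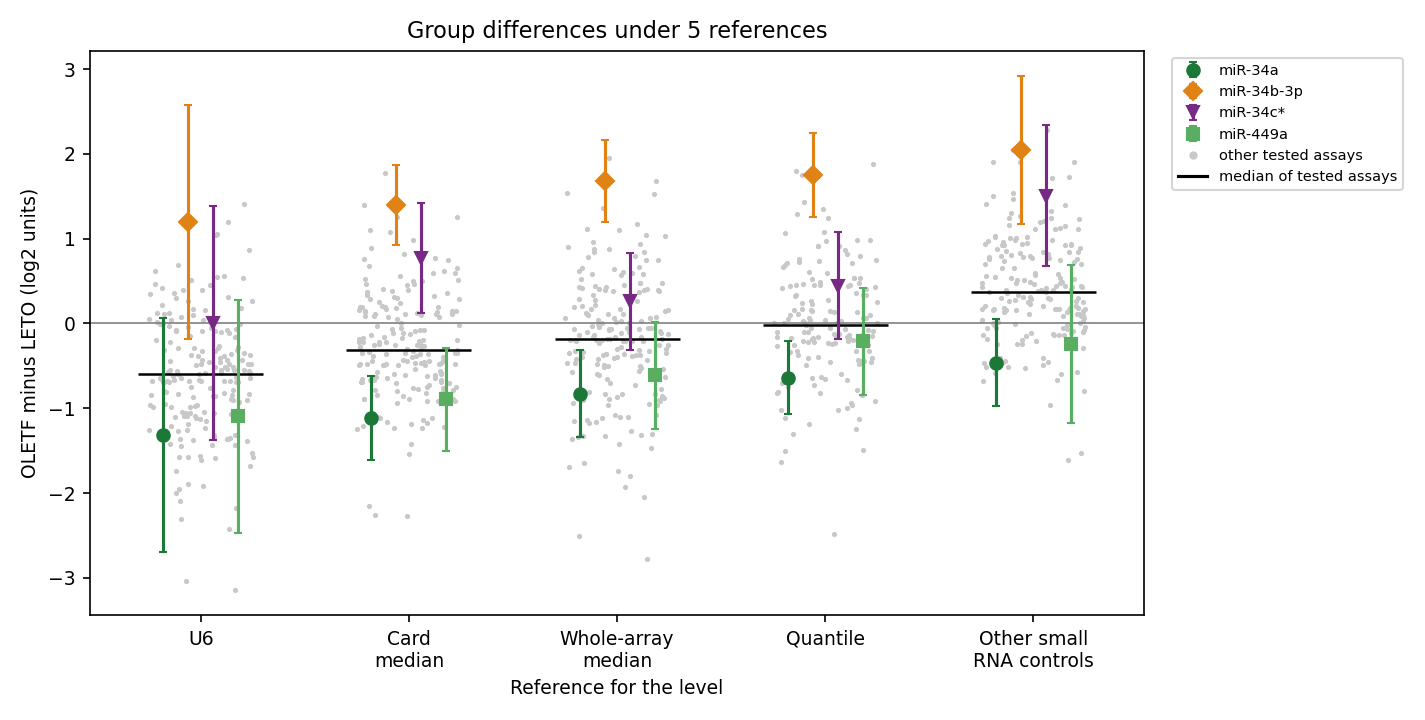
OLETF minus LETO difference (log2 units) of miR-34a, miR-34b-3p, miR-34c* and miR-449a under 5 references for the level, with the SE of the fit as bars. Grey points are the other tested assays and black lines the median of all tested assays. miR-34b-3p lies between 1.19 and 2.04 and miR-34a between -1.31 and -0.46, on opposite sides of the median under every reference shown. Both were chosen for their group differences.

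Because the 3 members share card A, their levels can be set against each other within a sample with no reference at all. TaqMan assays differ in how well they amplify, so the order of assays is a description. A constant offset between 2 assays cancels when their difference is compared between samples. Unequal amplification per cycle does not cancel, since its effect grows with Ct. The median Ct of card A ran from 26.5 to 30.0 between samples, and the part of such an effect was not tested. miR-34b-3p minus miR-34a was 0.90, 1.38 and -1.05 log2 units in OLETF, and -1.43, -1.69 and -3.17 in LETO. miR-34b-3p thus read above miR-34a in 2 of 3 OLETF samples and in 0 of 3 LETO samples. The means were 0.41 ± 1.28 in OLETF and -2.10 ± 0.94 in LETO (SD, n = 3 each). They differ by 2.51 (SE 0.919), or 5.68-fold if both assays double perfectly.

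All 9 pairs of an OLETF and a LETO sample ran the same way. The nearest samples, OLETF replicate 3 at -1.05 and LETO replicate 1 at -1.43, were 0.38 apart, less than the SD of a difference between 2 wells. Replicate 3 was the lowest of its group in both strains. Over replicates 1 and 2 alone the difference was 2.70, and replicate 3 of OLETF minus replicate 3 of LETO gave 2.13. It ran from 1.97 to 3.23 with 1 sample left out. As a background, 24% of the 121 other card A assays measured in all samples also lay higher relative to miR-34a in every OLETF than in every LETO sample. Relative to miR-34b-3p, 58.7% lay lower in every OLETF sample. Of the 121, 117 lay higher in OLETF relative to miR-34a on average, by a median of 0.85, and miR-34b-3p had the largest difference. Next came miR-365 (2.37), miR-184 (2.36) and miR-193b (2.19), which are named after their values were seen. Both members were chosen for their group differences, so nothing is read from the place of miR-34b-3p or from the 9 pairs.

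**Figure D3:**
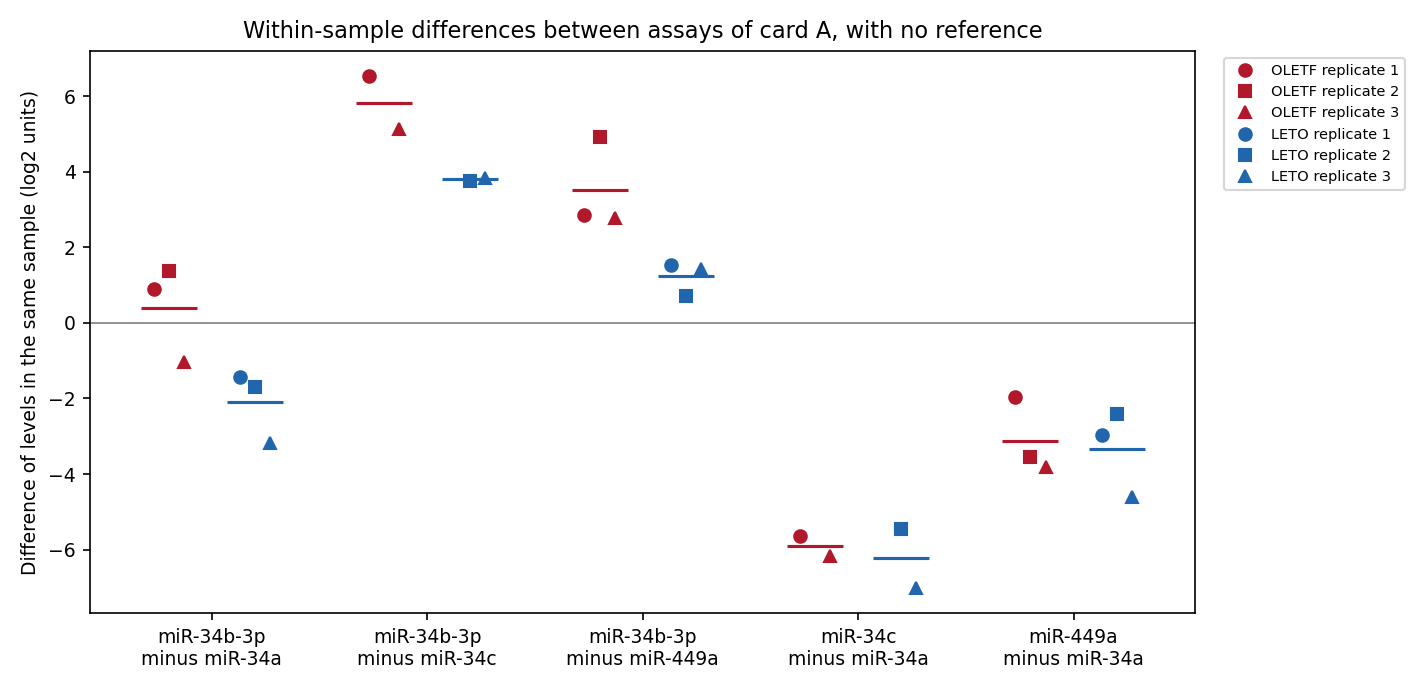
Difference between the levels of 2 card A assays in the same sample (log2 units, no reference), for OLETF (red, left) and LETO (blue, right), with lines at the group means. Pairs with miR-34c have 2 samples in each group, as its other wells were undetermined. miR-34b-3p minus miR-34a, minus miR-34c and minus miR-449a are each higher in every OLETF than in every LETO sample shown. The pairs without miR-34b-3p overlap. With 3 samples in each group, 58.7% of the card A assays set against miR-34b-3p show the same order. That share does not apply to the pair with miR-34c, which has 2 samples in each group.

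Both cluster members could be compared directly in the 4 samples in which the miR-34c well was determined. miR-34b-3p minus miR-34c was 6.53 and 5.12 log2 units in OLETF replicates 1 and 3, and 3.77 and 3.83 in LETO replicates 2 and 3. The miR-34c Ct was 35 or more, and so not counted as measured, in OLETF replicate 1 and LETO replicate 2, and no group difference is read from these values. Of the card A assays measured in all samples, 58.7% lay lower relative to miR-34b-3p in every OLETF than in every LETO sample. That share sets 3 samples against 3. With 2 against 2, groups are apart more easily, so it is no background for this pair. miR-34c minus miR-34a, in contrast, was -5.63 and -6.17 in OLETF replicates 1 and 3, and -5.46 and -7.01 in LETO replicates 2 and 3, and these ranges overlapped. miR-34c read more than 5 log2 units below miR-34a in each of these samples.

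miR-34c*, the 3′ arm of miR-34c and the one other miRNA with the seed of miR-34b-3p, was outside the naming rule and was measured on card B. It was determined in all 6 samples, with a Ct of 30.8, 29.8 and 30.5 in OLETF, and 31.4, 30.8 and 29.1 in LETO. Both 3′ arms of the cluster were therefore read in every sample in which the 5′ arm of miR-34c was near or past the limit. Relative to U6, miR-34c* averaged -13.16 ± 0.64 in OLETF and -13.17 ± 1.80 in LETO, a difference of 0.0053 (SE 1.38), and relative to the card median the difference was 0.77 (SE 0.651). It was 0.26 (SE 0.574) with the whole-array median, 0.45 (SE 0.627) with quantile normalization and 1.51 (SE 0.828) with the other small RNA controls. Using U6 of each card, miR-34b-3p minus miR-34c* was 1.64, 1.04 and 1.26 in OLETF, and 0.99, 0.088 and -0.70 in LETO. OLETF was higher in 9 of 9 pairs, with the nearest samples, 1.04 and 0.99, closer than the SD of a well. Of the 40 card B assays measured in all samples, 55% likewise lay lower relative to miR-34b-3p in every OLETF than in every LETO sample. On the same basis, miR-34c* minus miR-34a was -0.74, 0.34 and -2.30 in OLETF, and -2.42, -1.78 and -2.47 in LETO. The means differed by 1.32 (SE 0.798) and the groups overlapped. As miR-34a was chosen for its group difference, nothing is read from this value. The card-median difference of miR-34c* was 1.40 over replicates 1 and 2 and -0.49 for replicate 3. The latter is 1 sample against 1 sample, so nothing is read from the change of sign.

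Of the miR-449 cluster, which shares the seed of miR-34a and is a marker of multiciliated cells, miR-449a was measured in all 6 samples. Its Ct was 32.7, 34.8 and 32.4 in OLETF, and 33.4, 32.8 and 31.2 in LETO. miR-449b was undetermined in all wells, and miR-449c was determined in 1 of 6 OLETF wells (Ct 35.5) and 0 of 6 LETO wells. Relative to U6 miR-449a averaged -15.37 ± 1.37 in OLETF and -14.28 ± 1.01 in LETO, a difference of -1.10 (SE 1.38), and relative to the card median the difference was -0.89 (SE 0.609), with -1.48 over replicates 1 and 2 and 0.29 for replicate 3. Within samples miR-449a minus miR-34a was -1.96, -3.56 and -3.82 in OLETF, and -2.97, -2.42 and -4.60 in LETO. The groups overlapped, with means of -3.11 ± 1.00 in OLETF and -3.33 ± 1.14 in LETO. miR-34b-3p minus miR-449a was 2.86, 4.93 and 2.77 in OLETF, and 1.55, 0.72 and 1.43 in LETO, without overlap, as for 58.7% of the 121 card A assays set against miR-34b-3p.

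The likeness of profiles over the 6 samples was measured as the root mean square distance between card-median levels, each centred on its own mean. Nearest to miR-34a among 161 assays were miR-145, known from smooth muscle (0.28 log2 units), miR-19b (0.35) and miR-204 (0.35), against a median distance of 0.81. Nearest to miR-34b-3p were miR-193b (0.30), miR-155, known from leukocytes (0.41), and miR-23b (0.51), against a median of 1.12. The distance holds the group differences for which the members were chosen, so nothing is read from how far apart the members lie.

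The wider group of miRNAs that other work links to p53, either as transcribed targets or through p53-dependent maturation, had 18 members with an assay, of which 14 were tested. Relative to U6, 10 of the 14 lay lower and 4 higher in OLETF, but 3 lay lower with the other small RNA controls and 6 with quantile normalization. Over all tested assays, 48 of 193 lay lower with those controls and 85 of 162 with quantile normalization. The U6 median was -0.47, beside 156 lower and 37 higher and a median of -0.60 over all tested assays. None of the 14 passed (limma, 0 of 193 tested assays at an adjusted p under 0.05). Without miR-34a and miR-34b-3p, 9 of 12 lay lower, with the same median of -0.47. The list thus lay close to the table as a whole on the U6 scale.

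Lower than 0 after miR-34a were miR-103 (-0.97), miR-29c (-0.95), miR-145 (-0.85), miR-29b (-0.84), miR-194 (-0.69), miR-143 (-0.49), miR-29a (-0.46), miR-15a (-0.43) and miR-192 (-0.09), each with an SE of 1.38. Above 0 after miR-34b-3p were miR-203 (0.46), miR-16 (0.40) and miR-200c (0.17). Relative to the card median 9 lay lower and 5 higher, with a median of -0.27 beside -0.31 over all assays. miR-34a and miR-34b-3p were the lowest and the highest of the 14 on both scales. They were chosen for their group differences, so nothing is read from these places. Of the untested members, miR-34c and miR-215 were measured in 1 and 0 OLETF samples and in 1 and 0 LETO samples. miR-107 was measured in 1 OLETF and 3 LETO samples, and miR-141 in 2 OLETF and 1 LETO samples.

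**Figure D4:**
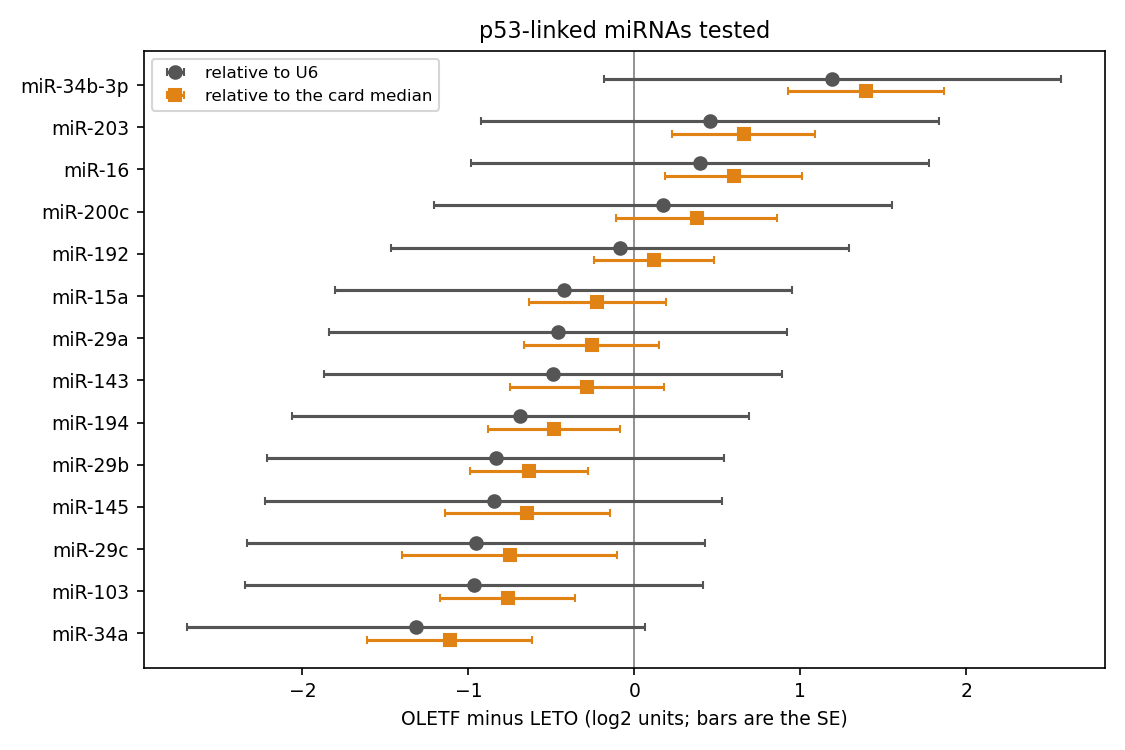
OLETF minus LETO difference (log2 units) of the 14 tested p53-linked miRNAs, relative to U6 (grey circles) and to the card median (orange squares), with the SE of each fit as bars. miR-34b-3p (1.19 and 1.40) and miR-34a (-1.31 and -1.11), both chosen for their group differences, are the ends of the list on both scales.

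The authors' deposited table gave an OLETF over LETO ratio of 0.402 for miR-34a, 2.29 for miR-34b-3p and 0.567 for miR-34c. The same ratios were obtained from the deposited delta Ct values, in which a well with no Ct was counted as 40 cycles. The authors' ratio for miR-34c thus rests on a filled-in value in 1 sample of each group, OLETF replicate 2 and LETO replicate 1. The authors' table also gave 1.00 for miR-34c*, 0.468 for miR-449a and 2.80 for miR-449c. The value for miR-449c came from a single determined well, in OLETF replicate 3, and that for miR-449b (0.841) from no determined well at all.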

How the data were processed

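Left ventricles of 3 OLETF and 3 LETO rats were assayed for microRNAs by RT-qPCR on TaqMan rodent cards. The deposited Ct table held 768 wells per sample, in 2 blocks of 384, called card A and card B here. Instrument thresholds are not given in the sources used here. The authors' deposited normalized values are delta Ct on a log2 scale, where higher means less RNA. They were recomputed as the mean Ct of an assay minus that of 4 U6 wells on its card, with 40 for no determined well, within 3.75e-06 over 4560 values. The other deposited table lists 1 ratio (linear fold, OLETF over LETO) per well.

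The Ct of an assay was the mean over its determined wells, and it counted as measured when under 35. Both groups needed at least 2 measured samples, which left 193 of 584 assays. These were compared with limma 3.58.1 in R 4.3.3 (two-sided, Benjamini-Hochberg, threshold 0.05). The fit was also tried on simulated data with independent noise of equal size and no shift of whole samples. That trial does not show how well the fit detects differences in these data. For single values, 3 against 3 samples allow no exact permutation p below 0.1, and none was run. The miR-34 assays, the p53-linked and marker lists, the rules and the alternatives were chosen with earlier results of these data known. Named were all assays of the family, of miR-449 and of the p53-linked list, and the 3 profiles nearest to each member. Equal replicate numbers were not taken as pairs, since the labels name no pairing. Deviations of U6-based levels from the group means correlated at -0.088, 0.23 and 0.62 for numbers 1, 2 and 3 (162 assays). These values hold the shifts of whole samples, so they cannot decide whether the numbers mark pairs.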

Additional observations from a re-analysis of the deposited data

How the results depend on the processing

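The number of miRNA assays past an adjusted p of 0.05 (limma) was 0, and it was 0 in 26 of 29 alternatives. It was 30 with array weights, miR-34a among them, 1 with the replicate block and 1 with replicate 3 set against replicates 1 and 2 as a block. The weights were 3.02 to 3.70 for OLETF replicates 1 and 2 and LETO replicate 1. They were 0.24 to 0.35 for the other samples, so the LETO side of the weighted fit rests mostly on 1 sample. The cause of these changes in number was not tested. Neither block called a miR-34 assay. The sign of miR-34a (-1.31), of miR-34b-3p (1.19) and of their difference (2.51) was the same in all 29 alternatives. This says little of stability, since 12 of the 29 left the difference between the assays at the same value, the 6 samples left out gave it the same values on both scales, and 8 and 7 returned the values of miR-34a and miR-34b-3p unchanged. With 1 sample left out, relative to U6 or to the card median, miR-34a ran from -2.30 to -0.19, miR-34b-3p from 0.41 to 1.77 and their difference from 1.97 to 3.23. A Ct limit of 32 removed LETO replicate 2 of miR-34b-3p by construction and gave 0.41 for it and 1.73 for the difference. The median difference of all assays ran from -1.57 to 0.38 with 1 sample left out. miR-34c was measured in 2 of 6 samples, in 0 with a limit of 32, in 4 with a limit of 38 and in 4 with no limit. With a limit of 38 miR-34c differed by -0.60 (SE 1.77), from 2 samples in each group. The main setting gives no miR-34c difference, so the number of samples took its place, a choice made after seeing the data, as was the use of replicates 1 and 2 alone with U6. The number of p53-linked miRNAs lower in OLETF was 10 of 14, but 3 with the other small RNA controls, 6 with quantile normalization and 5 with replicates 1 and 2 only. It ran from 2, without LETO replicate 3, to 13, without LETO replicate 2, with 1 sample left out. Over all tested assays, 156 of 193 lay lower in the main setting and 48 of 193 with the other small RNA controls. The counts were 85 of 162 with quantile normalization and 105 of 163 with replicates 1 and 2 only. They were 40 of 178 without LETO replicate 3 and 177 of 184 without LETO replicate 2. Wells of miR-34c near the Ct limit and single wells for every member limit the precision.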
